A study of Danio rerio with 4 samples.

Results

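The genes described here encode the machinery of oxidative phosphorylation. They were taken from the gene table by symbol: the subunit families of the 4 respiratory chain complexes and of ATP synthase (complex V), the assembly and inhibitory factors that share these symbol stems, and the protein genes of the mitochondrial genome. The rule found 118 of 31953 gene rows, 105 encoded in the nucleus and 13 in the mitochondrial genome. Complexes I, III and IV move electrons from NADH to oxygen and pump protons across the inner mitochondrial membrane, complex II feeds in electrons from succinate without pumping, and ATP synthase uses the proton gradient to make ATP. Complexes I, III, IV and V are built from subunits of both genomes, whereas complex II is wholly nuclear encoded. In vertebrates the mitochondrial genes are transcribed as long precursors that are cut into separate RNAs, while each nuclear gene is transcribed on its own.

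The study set 2 pools of uhrf1(hi272) mutant zebrafish larvae beside 2 pools of phenotypically normal siblings, all collected 120 h (5 days) after fertilisation, each a pool of 10 to 20 larvae per the labels. Uhrf1 brings the maintenance DNA methyltransferase to newly replicated DNA. Mutants and siblings were told apart by appearance, and the labels give no genotype of individual larvae and no link between a replicate number and a clutch, so the spread between libraries may be partly technical. Libraries were made from total RNA depleted of ribosomal RNA, and the values are raw reads per gene. The sample descriptions of both sibling libraries carry the name ABNYU, and those of the mutant libraries do not. What it stands for is not given in the labels used here, and it cannot be told apart from genotype.

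All 4 libraries are labelled as whole larvae, but the libraries labelled sibling went against this. In them all 10 photoreceptor genes, 5 of 6 neuronal genes and 4 of 5 lens genes on the marker lists had no read. The hepatocyte marker share was 0.64% and 0.37% in mutants, compared with 24.2% and 19.0% in siblings. Skeletal muscle markers took 6.92% and 6.31% in mutants, compared with 0.0382% and 0.0154% in siblings. Exocrine pancreas markers took 0.00332% and 0.00389% in mutants, but 0.0419% and 14.7% in siblings, the higher value being in replicate 2. Tissue makeup and genotype cannot be told apart in this design, and in pooled tissue fewer cells of a type cannot be told apart from less RNA per cell. Every difference below is between these libraries. Depth was 571978 and 564941 gene reads for mutants, compared with 613370 and 812167 for siblings.

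Nuclear encoded members took a smaller share of the reads of mutant libraries and mitochondrially encoded members a larger one. The 105 nuclear genes held 3700 and 3659 reads in mutants, compared with 5853 and 6814 in siblings. As a share of all gene reads this was 0.647% (95% interval by Wilson's method 0.626% to 0.668%) and 0.648% (0.627% to 0.669%) in mutants, compared with 0.954% (0.930% to 0.979%) and 0.839% (0.819% to 0.859%) in siblings. The 13 mitochondrial genes held 9808 and 9641 reads in mutants, compared with 6093 and 2482 in siblings. They took 1.71% (1.68% to 1.75%) and 1.71% (1.67% to 1.74%) in mutants, compared with 0.993% (0.969% to 1.02%) and 0.306% (0.294% to 0.318%) in siblings. These intervals cover counting error only. The mutant pair was nearly equal in both shares, and the sibling pair was close in the nuclear share but far apart in the mitochondrial one.

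Shares were also taken with the hepatocyte and exocrine pancreas markers left out of the total. In siblings the nuclear shares became 1.26% and 1.26%, and the mitochondrial shares 1.31% and 0.461%. In mutants the same totals gave 0.651% and 0.650% for nuclear genes and 1.73% and 1.71% for mitochondrial genes. This takes out only the reads of the listed genes and no mitochondrial reads of the same cells. The part of tissue makeup in the shares was not tested.

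The ratio of mitochondrial to nuclear reads inside a library does not depend on how libraries are scaled, and it was higher in both mutant libraries than in both sibling libraries for each of the 4 complexes of mixed origin. Over all complexes it was 2.65 and 2.63 in mutants, compared with 1.04 and 0.364 in siblings. On the log2 scale the mean was 1.40 ± 0.01 in mutants and -0.70 ± 1.07 in siblings (SD, n = 2 libraries each), a difference of 2.1. The ratio is of reads, not of transcripts per length, so it compares libraries and not the levels of the genomes' genes. With 2 libraries in each group an exact two-sided permutation test cannot give a p below 0.333, so no test decides these ratios.

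Complex I, which oxidises NADH, had 3.15 and 3.11 mitochondrial reads per nuclear read in mutants, compared with 0.751 and 0.347 in siblings. Complex III, which passes electrons from ubiquinol to cytochrome c, had 1.69 and 1.78 in mutants, compared with 0.783 and 0.320 in siblings. In complex IV, the cytochrome c oxidase, the ratio was 11.4 and 11.1 in mutants, compared with 4.21 and 1.45 in siblings. ATP synthase had 0.260 and 0.263 in mutants, compared with 0.0542 and 0.0199 in siblings. The log2 differences between the group means were 2.61, 1.79, 2.19 and 2.99 for complexes I, III, IV and V. Sibling replicate 2 was the lower sibling in all 4, and without it the differences were 2.06, 1.15, 1.42 and 2.27, and 1.34 over all complexes. Without sibling replicate 1 they were 3.17, 2.44, 2.96 and 3.71, and 2.86 over all complexes.

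**Figure D1:**
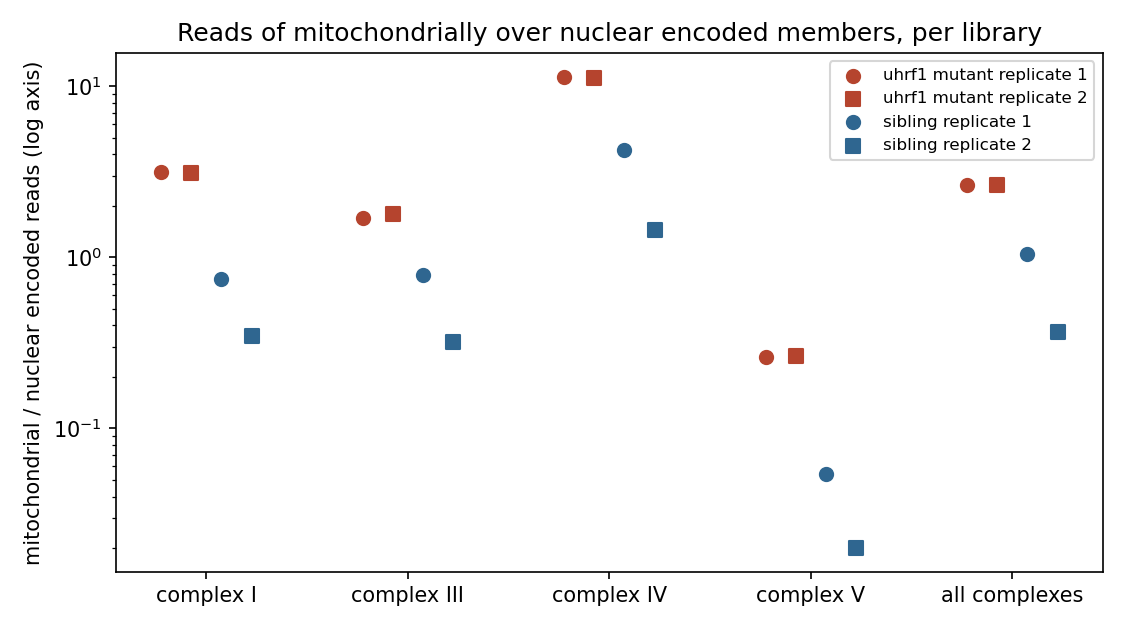
Reads of the mitochondrially encoded members divided by reads of the nuclear encoded members in each library, on a log axis, for complexes I, III, IV and V and over all complexes. Each point is 1 library. The mutant libraries lie almost on each other (2.65 and 2.63 over all complexes) and above both sibling libraries (1.04 and 0.364), which lie apart.

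Each gene was then tested in a single fit over the whole table (quasi-likelihood test of edgeR, TMM scaling, Benjamini-Hochberg adjusted p under 0.05). Log2 fold changes below are mutant over sibling. The ± beside each is an approximate standard error, the absolute log2 fold change divided by the square root of the test statistic F. It is worked back from the test and is no separate measure of spread. Of the 8133 genes in the fit, 61.0% passed, with 35.2% higher and 25.9% lower. Of the 105 nuclear members 84 passed the count filter, and 75 of these were lower and 0 higher; at an unadjusted p under 0.05, 1 was higher and 76 lower, and DESeq2 called 65 lower and 0 higher, beside 1658 lower and 1706 higher of all 8133 genes. All 13 mitochondrial members were tested, and 4 were higher and 2 lower. The median log2 fold change was -2.21 for nuclear members, 0.47 for mitochondrial members and 0.48 for all tested genes.

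These directions depend on the library scaling, because the scaling shifts all genes together. The all-gene median was 2.17 with total-count scaling and 3.11 with scaling on cytosolic ribosomal protein genes. The nuclear members then had medians of -0.50 and 0.46, and 23 were lower and 8 higher with the first and 3 lower and 23 higher with the second. The mitochondrial members had medians of 2.15 and 3.09, with 10 and 13 of 13 higher. Relative to the all-gene median, the nuclear median was -2.69, -2.67 and -2.66 under the 3 scalings and the mitochondrial median -0.01, -0.02 and -0.03. Among all tested genes 12.5% and 8.02% were then lower, and 68.7% and 79.1% higher. Leaving out a library also moved the counts: without mutant replicate 1 or mutant replicate 2, 24 of 88 and 43 of 87 tested nuclear members were lower and no mitochondrial member passed. Calls then fell over the whole table too, to 924 lower and 340 higher of 8809 genes and to 1252 lower and 729 higher of 8758 genes. Without sibling replicate 1 the mitochondrial median was 1.13, beside 0.60 for all tested genes. Without sibling replicate 2 it was 0.08, beside 0.62. The cytosolic ribosomal protein genes, another set of abundant nuclear messages, had a median of -2.67 with TMM scaling.

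**Figure D2:**
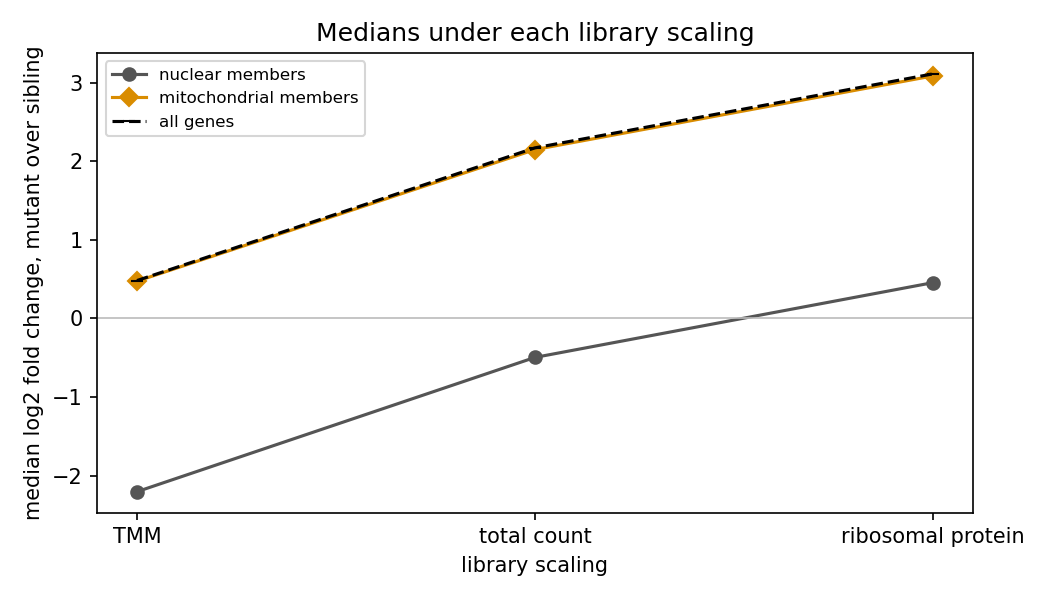
Median log2 fold change, mutant over sibling, of the 84 tested nuclear members, the 13 mitochondrial members and all 8133 tested genes under 3 library scalings. The nuclear median is below 0 with TMM and total-count scaling (-2.21 and -0.50) and above it with ribosomal protein scaling (0.46), while the distance between the lines hardly changes.

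Complex I had 34 of its 45 nuclear genes tested, and 32 were lower under TMM scaling, with a median of -2.26. The core subunits hold the flavin and the iron-sulphur clusters and have bacterial relatives, and the accessory subunits surround them. Of 7 core genes 6 were lower (median -1.51), and of 26 tested accessory genes 25 were lower (median -2.29). NDUFS1, the largest iron-sulphur subunit and the nuclear complex I gene with the most reads, had 108 and 117 reads in mutants, compared with 123 and 130 in siblings. Its log2 fold change was -1.51 ± 0.30 (adjusted p = 0.000765, edgeR), and with ribosomal protein scaling it was called in the other direction, at 1.15. NDUFV1, the subunit that binds NADH and flavin, was the core gene that did not pass, with 102 and 103 reads in mutants, compared with 36 and 34 in siblings. Its log2 fold change was 0.21 ± 0.32 (adjusted p = 0.585), and with total-count scaling it was higher, at 1.91. It was also called higher with TMM scaling when at least 10 reads were required in every library, at 1.405.

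The lowest complex I genes were small accessory subunits of the membrane arm. NDUFA1 had 5 and 12 reads in mutants, compared with 33 and 54 in siblings (log2 fold change -3.67 ± 0.46, adjusted p = 1.85e-05, edgeR). NDUFS5 had 10 and 9 in mutants, compared with 36 and 47 in siblings (-3.44 ± 0.39, adjusted p = 7.70e-06). NDUFB10 had 10 and 15 in mutants, compared with 36 and 59 in siblings (-3.25 ± 0.41, adjusted p = 2.12e-05). NDUFA1 (5 reads in mutant replicate 1) and NDUFS5 (9 in mutant replicate 2) passed the count filter through their sibling reads. Neither was tested when at least 10 reads were required in every library. Named genes were required to have separate groups, so that these 3 separate is no result. Each was also lower with total-count scaling but not past the threshold with ribosomal protein scaling. The tested accessory gene that did not pass was NDUFB4, at -0.90 ± 0.46.

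The balance between parts of complex I also differed inside the libraries, a comparison chosen after the values were seen. Reads of core genes per read of accessory genes were 0.944 and 1.01 in mutants, compared with 0.579 and 0.458 in siblings. NDUFV1 had 0.355 and 0.340 reads per read of the other 6 core genes in mutants, compared with 0.0930 and 0.0890 in siblings, a ratio 3.82-fold higher in mutants.

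Complex II stood closest to the all-gene median among the nuclear sets. SDHA, which binds flavin and oxidises succinate, had 146 and 127 reads in mutants, compared with 75 and 68 in siblings, and SDHB, the iron-sulphur subunit, 75 and 76 in mutants, compared with 38 and 37 in siblings. Reads were higher in both mutant libraries, but neither gene passed in the fit reported with TMM scaling (-0.41 ± 0.30 and -0.33 ± 0.32). Both were higher with total-count scaling (1.29 and 1.37). Both were also called higher with TMM scaling when at least 10 reads were required in every library (0.79 and 0.87). The membrane anchors behaved otherwise. SDHC had 13 and 18 reads in mutants, compared with 31 and 39 in siblings (-2.50 ± 0.37, adjusted p = 8.17e-05, edgeR). SDHD (ENSDARG00000030139) had 28 and 16 in mutants, compared with 22 and 35 in siblings, which overlap as reads but not once scaled (-1.71 ± 0.40, adjusted p = 0.00250). With ribosomal protein scaling SDHC did not pass (0.16) and SDHD was called higher (0.97). Catalytic reads per anchor read were 5.39 and 5.97 in mutants, compared with 2.13 and 1.42 in siblings, a comparison also chosen after the values were seen.

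Complex III had 8 of 9 nuclear genes tested and all 8 were lower with TMM scaling, with a median of -1.91. The core protein gene UQCRC1, with the most reads, had 87 and 69 in mutants, compared with 116 and 127 in siblings (-1.98 ± 0.31, adjusted p = 0.000140, edgeR). UQCRQ, a small subunit, had 15 and 20 in mutants, compared with 41 and 51 in siblings (-2.72 ± 0.36, adjusted p = 3.49e-05). The hinge protein gene UQCRH had 49 and 41 in mutants, compared with 81 and 79 in siblings (-2.17 ± 0.32). Cytochrome c1 (CYC1), which hands electrons to cytochrome c, was the mildest, with 100 and 74 reads in mutants, compared with 67 and 63 in siblings (-0.92 ± 0.32, adjusted p = 0.0243). With ribosomal protein scaling none of the 8 was lower, and CYC1, the Rieske protein gene UQCRFS1 and UQCR10 were higher.

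**Figure D3:**
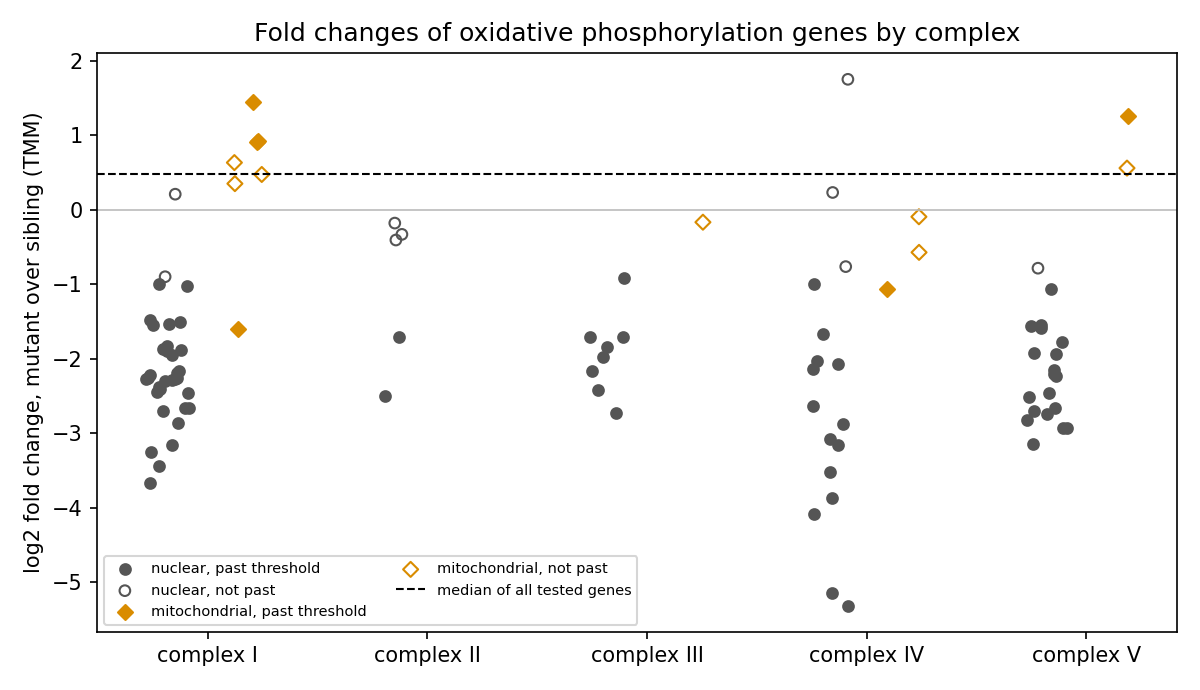
Log2 fold change, mutant over sibling, of each tested member with TMM scaling, by complex, with nuclear encoded genes as circles and mitochondrially encoded genes as diamonds. Filled symbols passed the threshold and the dashed line is the median of all tested genes, 0.48. Nuclear members lie mostly near -2. Mitochondrial members lie on both sides of the line, from -1.61 to 1.44, with their median near it. With ribosomal protein scaling every point moves up and the nuclear median becomes 0.46.

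Complex IV held the lowest genes of the whole set, down to -5.32 for cox7a1. Of 22 nuclear genes 17 were tested, and 14 were lower with TMM scaling (median -2.63). COX7C, a small structural subunit, had 39 and 34 reads in mutants, compared with 128 and 130 in siblings (-3.15 ± 0.33, adjusted p = 3.58e-06, edgeR). The subunit gene cox5aa had 53 and 47 in mutants, compared with 153 and 181 in siblings (-3.08 ± 0.32, adjusted p = 3.68e-06). The nuclear complex IV gene with the most reads was cox6b2, with 65 and 71 in mutants, compared with 178 and 218 in siblings (-2.88 ± 0.31, adjusted p = 5.11e-06). These 3 were lower with total-count scaling as well and did not pass with ribosomal protein scaling (-0.51, -0.42 and -0.21). Of all 84 tested nuclear members, the ones lower under all 3 scalings were cox7a1, cox6b1 and the COX6A1 gene ENSDARG00000054588. Each had under 10 reads in both mutant libraries and passed the count filter through its sibling reads. None of them was tested when at least 10 reads were required in every library.

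These 3 genes belong to subunits that zebrafish encode with more than 1 gene, and the share of each paralog in the reads of its subunit needs no scaling between libraries. Some paralogs of these subunits differ between heart or skeletal muscle and other tissues in mammals. Of 13 such subunit sets with at least 20 reads in every library, the largest shift was in cox7a. The gene cox7a1, whose mammalian relative is the heart and muscle form, had 2 and 7 reads in mutants, compared with 70 and 77 in siblings. It was at -5.32 ± 0.48 (adjusted p = 9.50e-07, edgeR). COX7A2 had 19 and 20 in mutants, compared with 16 and 15 in siblings, and was at -1.0 ± 0.38 (adjusted p = 0.0336, edgeR) with TMM scaling but at 0.70 and 1.64 with total-count and ribosomal protein scaling. COX7A2 thus took 90.5% (Wilson 95% interval 71.1% to 97.3%) and 74.1% (55.3% to 86.8%) of the set in mutants, compared with 18.6% (11.8% to 28.1%) and 16.3% (10.1% to 25.2%) in siblings. In the same libraries skeletal muscle markers took 6.92% and 6.31% of gene reads in mutants, compared with 0.0382% and 0.0154% in siblings. Hepatocyte markers took 0.64% and 0.37% in mutants, compared with 24.2% and 19.0% in siblings. The part of tissue makeup in the paralog shares was not tested.

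A similar exchange was seen in cox6a and cox8. The 2 cox6a genes carry the same symbol in different case, and the files do not relate them to the mammalian forms. The gene cox6a1 (ENSDARG00000022438) had 30 and 28 reads in mutants, compared with 22 and 17 in siblings, and COX6A1 (ENSDARG00000054588) had 1 and 2 in mutants, compared with 29 and 18 in siblings. COX6A1 had a log2 fold change of -5.15 ± 0.58 (adjusted p = 8.23e-06, edgeR), and cox6a1 did not pass (-0.76 ± 0.35). The share of cox6a1 was 96.8% and 93.3% in mutants, compared with 43.1% and 48.6% in siblings. In cox8, cox8a had 59 and 63 reads in mutants, compared with 23 and 18 in siblings, and cox8b 6 and 3 in mutants, compared with 19 and 35 in siblings. The share of cox8a was 90.8% and 95.5% in mutants, compared with 54.8% and 34.0% in siblings.

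The ndufa4 set, named for complex I but counted here with complex IV, to which NDUFA4 belongs, moved in another way. NDUFA4 took 66.1% and 58.7% of its reads in mutants, compared with 92.5% and 83.3% in siblings. Of the rest, ndufa4b had 16 and 19 reads in mutants, compared with 0 and 4 in siblings, and NDUFA4L2 had 4 and 7 in mutants, compared with 5 and 9 in siblings. NDUFA4 was at -2.08 ± 0.33 (adjusted p = 0.000141, edgeR) and ndufa4b at 1.75 ± 0.75 (adjusted p = 0.0572). The ndufa4b value rests on the few sibling reads: it was 0.80 without sibling replicate 1, and 6.83 and past the threshold without sibling replicate 2, when the remaining sibling library had no read. The gene COX4I2, whose mammalian relative is an oxygen-responsive form, failed the count filter with 8 and 9 reads in mutants, compared with 1 and 2 in siblings, beside 74 and 82 reads of COX4I1 in mutants and 123 and 128 in siblings. In cox6b, cox6b2 took 94.2% and 88.8% in mutants, compared with 84.0% and 79.9% in siblings. Reads from near-identical paralogs may have been split or dropped in the authors' counting.

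**Figure D4:**
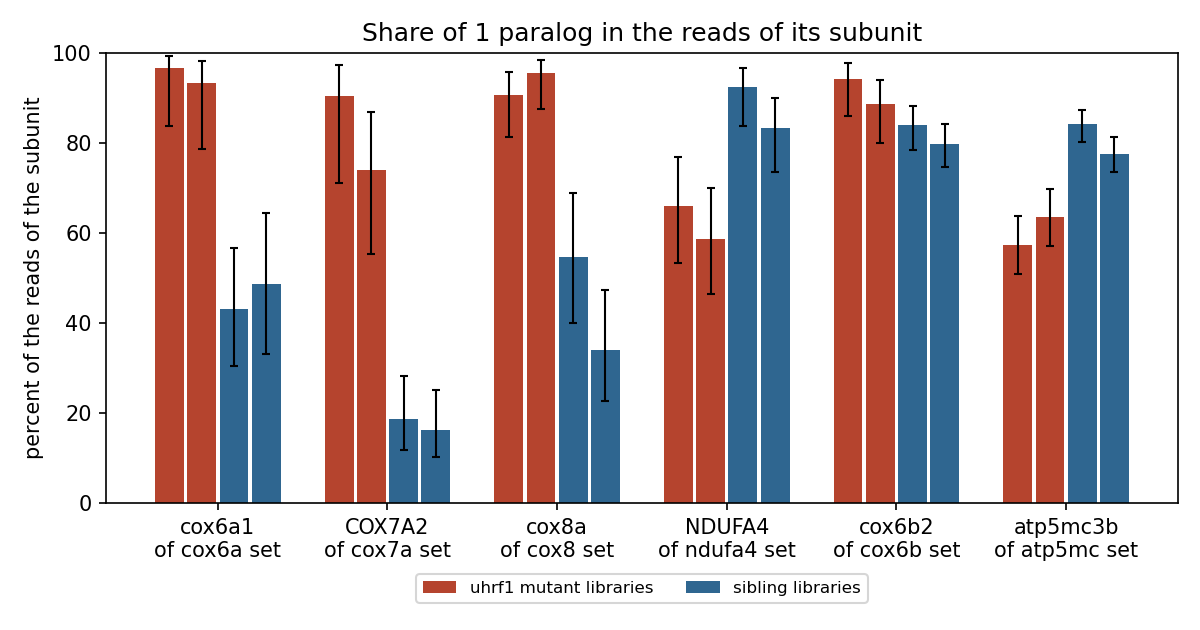
Percent of the reads of a subunit that came from 1 of its paralogs in each library, for 6 subunit sets, with Wilson 95% intervals that cover counting error only. Mutant libraries are the left pair of bars in each set and sibling libraries the right pair. COX7A2 took 90.5% and 74.1% of cox7a reads in mutants, compared with 18.6% and 16.3% in siblings.

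All 20 nuclear genes of ATP synthase passed the count filter, and 19 were lower with TMM scaling, with a median of -2.22. In the F1 head, where ATP is made, the catalytic beta subunit ATP5F1B had 443 and 373 reads in mutants, compared with 846 and 996 in siblings (-2.52 ± 0.35, adjusted p = 4.40e-05, edgeR). The alpha subunit ATP5F1A had 406 and 399 in mutants, compared with 406 and 522 in siblings (-1.55 ± 0.32, adjusted p = 0.00113). The reads of alpha overlap between groups to the point of a tie, and it was called higher with ribosomal protein scaling (1.13). The rotating gamma subunit ATP5F1C had 82 and 93 in mutants, compared with 241 and 369 in siblings (-3.14 ± 0.35, adjusted p = 6.92e-06).

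Reads of the alpha, beta and gamma genes thus stood in different proportions in mutants and siblings, in ratios chosen after the values were seen. Beta reads per alpha read were 1.09 and 0.935 in mutants, compared with 2.08 and 1.91 in siblings. Gamma reads per alpha read were 0.202 and 0.233 in mutants, compared with 0.594 and 0.707 in siblings. In the peripheral stalk, which holds the head still, all 4 genes were lower with TMM scaling, beside 25.9% of all genes. Total-count scaling put 1 lower and ribosomal protein scaling 0, where 12.5% and 8.02% of all genes were lower. ATP5PD had 45 and 50 reads in mutants, compared with 122 and 124 in siblings (-2.71 ± 0.32, adjusted p = 1.06e-05, edgeR). ATP5PD was at -0.06 with ribosomal protein scaling.

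The c-ring, which turns as protons pass, had 3 genes under the rule. In mammals the genes of this family encode the same mature protein. The gene atp5mc3b had 128 and 138 reads in mutants, compared with 350 and 354 in siblings (-2.74 ± 0.32, adjusted p = 1.00e-05, edgeR). It took 57.4% and 63.6% of c-ring reads in mutants, compared with 84.1% and 77.6% in siblings. ATP5MC3 was at -1.56 ± 0.36, and atp5mc1 did not pass (-0.78 ± 0.37). Both genes for the inhibitory factor that stops ATP breakdown were lower with TMM scaling, atp5if1b at -2.93 ± 0.40 and atp5if1a at -1.78 ± 0.59, and neither passed with ribosomal protein scaling.

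Among assembly factors, which build the complexes and do not stay in them, 11 genes fell under the rule and 2 were tested. NDUFAF1 had 12 and 7 reads in mutants, compared with 14 and 13 in siblings (-1.83 ± 0.46, adjusted p = 0.00404, edgeR), and did not pass with the other 2 scalings. SDHAF2, which helps attach flavin to SDHA, had 22 and 16 in mutants, compared with 6 and 11 in siblings (-0.18 ± 0.48), and was higher with total-count scaling (1.53). In all, 21 of 118 members failed the count filter, and UQCRB, ndufa4l2b and SDHD (ENSDARG00000055712) had no read in any library.

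The mitochondrially encoded genes did not move as a block, although they are cut from shared precursors. MT-ND2, a proton-pumping subunit of complex I, had 283 and 247 reads in mutants, compared with 48 and 29 in siblings, and rose by 1.44 ± 0.33 (adjusted p = 0.00225, edgeR). MT-ND4 had 746 and 725 in mutants, compared with 215 and 92 in siblings (0.93 ± 0.38, adjusted p = 0.0491), and MT-ND5 801 and 801 in mutants, compared with 215 and 123 in siblings (0.91 ± 0.34, adjusted p = 0.0331). The small ATP synthase gene mt-atp8 had 35 and 38 in mutants, compared with 9 and 3 in siblings (1.26 ± 0.47, adjusted p = 0.0348). It passed the count filter through its mutant reads and was not tested when at least 10 reads were required in every library. Of all tested genes 35.2% were higher with TMM scaling, and 68.7% and 79.1% with total-count and ribosomal protein scaling. DESeq2 called 1 mitochondrial member higher. The other 2 scalings shift all genes upward, so that these 4 were higher under all 3 is no result. Without either mutant library none of them passed.

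MT-ND3 and MT-CO3 went the other way. MT-ND3, another complex I subunit, had 103 and 110 reads in mutants, compared with 166 and 91 in siblings (-1.61 ± 0.34, adjusted p = 0.00121, edgeR). MT-CO3, the third large subunit of cytochrome c oxidase, had 1084 and 1063 in mutants, compared with 1295 and 492 in siblings (-1.07 ± 0.42, adjusted p = 0.0422). The mutant reads lay between the 2 sibling values in both genes, neither passed with total-count scaling (0.05 and 0.55), and both were called higher with ribosomal protein scaling (0.98 and 1.47). MT-CO1, which holds the oxygen-reducing site, had 3773 and 3592 in mutants, compared with 2327 and 793 in siblings (-0.09 ± 0.45), and cytochrome b, MT-CYB, had 675 and 662 in mutants, compared with 412 and 183 in siblings (-0.17 ± 0.37). Neither passed in the fit reported with TMM scaling, but neither value was stable. Without sibling replicate 1 MT-CO1 and MT-CYB were at 0.90 and 0.55, and without sibling replicate 2 at -0.63 and -0.59. With at least 10 reads required in every library MT-CYB was called higher, at 1.025. In the fit reported, MT-ND1, MT-ATP6, mt-nd4l and MT-ND6 were at 0.63, 0.56, 0.47 and 0.35 and MT-CO2 at -0.57, with none past the threshold.

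The share of each gene in the mitochondrial reads of a library removes both the scaling and the amount of mitochondrial RNA. The shares of a library sum to a fixed total, so they are not independent, and with 2 libraries in each group none can reach an exact two-sided permutation p below 0.333. MT-CO3 took 11.1% and 11% in mutants, compared with 21.3% and 19.8% in siblings. MT-ND3 took 1.05% and 1.14% in mutants, compared with 2.72% and 3.67% in siblings. In the RefSeq annotation of GRCz12tu these genes are neighbours with 1 other gene between them. The next protein gene after MT-ND3, mt-nd4l, went the other way, with 0.449% and 0.456% in mutants, compared with 0.279% and 0.322% in siblings.

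MT-CO2 also had a smaller share in both mutant libraries, at 12.7% and 13.3% in mutants, compared with 16.7% and 19.0% in siblings. Among genes with a larger mean share in mutants, the largest ratios were in mt-atp8, with a mean share 2.80-fold higher, and MT-ND2. MT-ND2 took 2.88% and 2.56% in mutants, compared with 0.788% and 1.17% in siblings. The mt-atp8 ratio rests on 9 and 3 sibling reads. The mean share of MT-ND3 was 2.92-fold lower in mutants. MT-ND4 took 7.61% and 7.52% in mutants, compared with 3.53% and 3.71% in siblings, and MT-ND5 8.17% and 8.31% in mutants, compared with 3.53% and 4.96% in siblings. The shares of MT-CO1 (38.5% and 37.3% in mutants, compared with 38.2% and 31.9% in siblings) and MT-CYB (6.88% and 6.87% in mutants, compared with 6.76% and 7.37% in siblings) overlapped. MT-ND6, the protein gene on the other strand, had 0.0877 and 0.0841 reads per read of the other 6 complex I genes in mutants, compared with 0.116 and 0.0824 in siblings, so the groups overlapped. Whether strand was used in counting is not given in the sources used here, and reads of neighbouring genes that overlap, such as mt-atp8 and MT-ATP6, may not be separable.

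**Figure D5:**
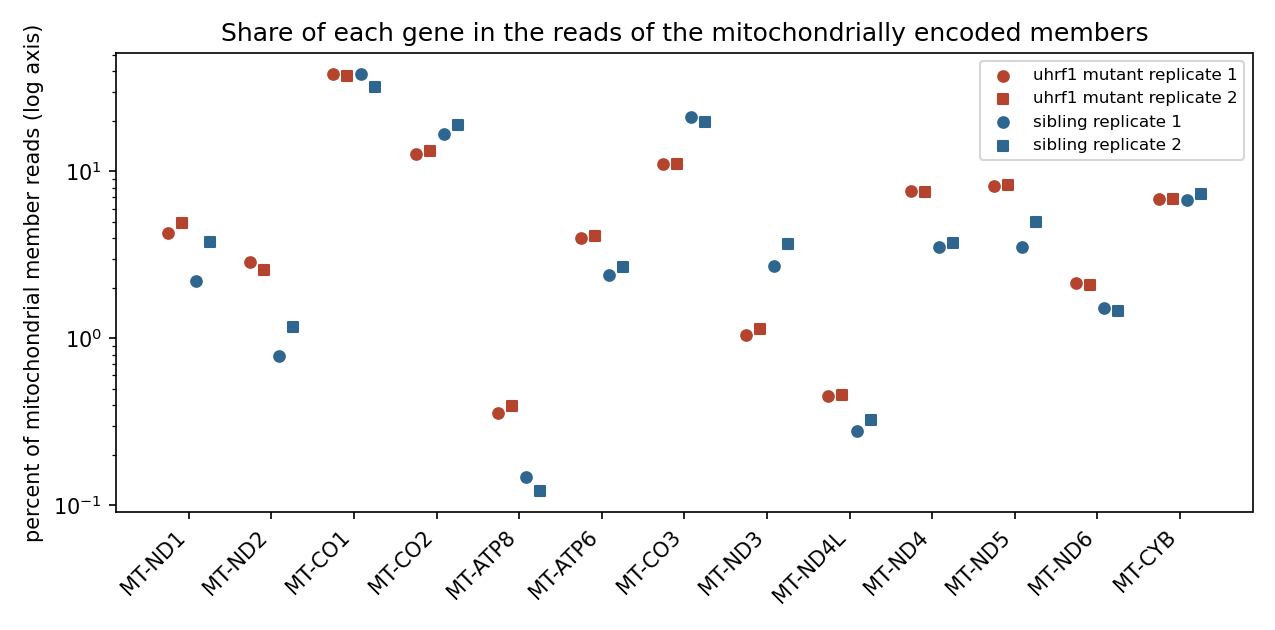
Percent of the reads of the 13 mitochondrially encoded members taken by each gene in each library, on a log axis, with genes in the order of the mitochondrial genome. Mutant libraries are the left pair of points for each gene and sibling libraries the right pair. MT-CO3 and MT-ND3 are lower in mutants (11.1% and 11%, and 1.05% and 1.14%) than in siblings (21.3% and 19.8%, and 2.72% and 3.67%), and MT-ND2, MT-ND4 and MT-ND5 are higher.

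Other genes of mitochondrial energy supply were followed by lists. Of 18 tested citric acid cycle genes 10 were lower and 2 higher with TMM scaling (median -1.03), beside 25.9% and 35.2% of all genes. Citrate synthase, CS, which starts the cycle, had 177 and 168 reads in mutants, compared with 16 and 19 in siblings (1.96 ± 0.34, adjusted p = 0.000328, edgeR). DLAT, a pyruvate dehydrogenase subunit, was higher too (1.06 ± 0.36, adjusted p = 0.0219). The succinyl-CoA ligase genes SUCLG1 and SUCLG2 were far lower, and were named as the 2 lower genes of the list with the smallest p. SUCLG1 had 43 and 52 reads in mutants, compared with 634 and 682 in siblings (-5.13 ± 0.37, adjusted p = 1.57e-07, edgeR). SUCLG2 had 25 and 13 in mutants, compared with 311 and 311 in siblings (-5.36 ± 0.41). With total-count scaling 3 cycle genes were lower and 7 higher, and with ribosomal protein scaling 2 and 13. Of all genes 12.5% and 8.02% were then lower, and 68.7% and 79.1% higher.

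Among 6 tested regulators of mitochondrial biogenesis 3 were higher and 1 lower with TMM scaling, beside 35.2% and 25.9% of all genes. The muscle regulator perm1b had 23 and 23 reads in mutants, compared with 0 and 1 in siblings (4.0 ± 0.86, adjusted p = 0.00135, edgeR). With so few sibling reads its fitted value became 3.13 when sibling replicate 1 was left out and 7.22 when sibling replicate 2 was, and it did not pass without either mutant library. The coactivator ppargc1b had 50 and 51 in mutants, compared with 10 and 11 in siblings (0.92 ± 0.37, adjusted p = 0.0450). The nuclear receptor ESRRA was lower (-1.64 ± 0.38). With total-count scaling 5 regulators were higher and 0 lower, where 68.7% of all genes were higher. DESeq2 and the replicate block each called 1 regulator higher and 1 lower, and without either mutant library 0 passed by edgeR, with 1 higher in each case, and 0 and 1 lower, at an unadjusted p under 0.05. Of 73 mitochondrial ribosomal protein genes 13 were tested. With TMM scaling 10 were lower and 0 higher, beside 25.9% and 35.2% of all genes. With total-count and ribosomal protein scaling 0 were lower and 2 and 5 higher, where 68.7% and 79.1% of all genes were higher. MRPL2 was at -2.56 ± 0.38 and MRPL16 at -2.16 ± 0.37. Of 27 genes for cytochrome c and protein import 10 were tested. With TMM scaling 7 were lower and 1 higher, beside 25.9% and 35.2% of all genes. The import receptors TOMM20 and TOMM70 were at -1.87 ± 0.35 and -1.45 ± 0.33 and tomm34 at 1.93 ± 0.72. The gene tomm34 had 19 and 11 reads in mutants, compared with 2 and 1 in siblings, and passed the count filter through its mutant reads. With total-count and ribosomal protein scaling 0 import genes were lower and 2 and 6 higher, where 68.7% and 79.1% of all genes were higher. Of 7 tested assembly factors outside the symbol rule 2 were lower with TMM scaling, beside 25.9% of all genes. They were coa6 at -3.08 ± 0.54 and ACAD9 at -1.74 ± 0.51. The gene coa6 had 2 and 7 reads in mutants, compared with 15 and 16 in siblings, and passed the count filter through its sibling reads. ACAD9 had 7 and 17 in mutants, compared with 11 and 21 in siblings, which overlap as reads. No gene of this list was tested when at least 10 reads were required in every library. Total-count scaling put 1 lower and 5 higher, and ribosomal protein scaling 0 lower and 5 higher, where 68.7% and 79.1% of all genes were higher. The counts lower with TMM scaling and higher with the other 2 lie near these shares and are no result about the list. Of 18 genes that maintain or transcribe mitochondrial DNA 2 were tested and 0 passed by edgeR or DESeq2 (0 at an unadjusted p under 0.05). Both were higher with total-count scaling, where 68.7% of all genes were higher. DESeq2 called fewer genes lower over the whole table too, at 1658 of 8133, as did the fits without a mutant library. The other list counts were also smaller elsewhere: DESeq2 called 6 citric acid cycle, 5 mitochondrial ribosomal protein and 4 import genes lower. Without mutant replicate 1 the counts lower were 4, 0 and 0, and without mutant replicate 2 they were 5, 2 and 0.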

How the data were processed

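The deposited values are raw counts of reads per gene, not normalised, as the columns of a single table show. Per the submitters' processing notes TopHat2, HTSeq, DESeq2 and GRCz10 were used; no version is stated there, and settings and use of strand were not given. Symbols were matched to 26121 of 31953 identifiers. No sequences were used, and of positions only the order of the mitochondrial genes in RefSeq's GRCz12tu annotation. The repeat table was not used here.

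The fit over all genes used edgeR 4.0.16 in R 4.3.3 (default count filter by group, TMM, robust quasi-likelihood test of group). TMM factors were 1.78 and 1.83 for mutants and 0.63 and 0.485 for siblings. With 3 counts as the floor, no read in a library means at most 3.25 and 3.22 CPM in mutants and 8.11 and 8.28 in siblings. Intervals are Wilson 95% intervals and cover counting error only. The code was tested on simulated data. Between replicates, chi-square over its degrees of freedom was 1.31 in mutants and 35.5 in siblings.

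The members and lists were chosen with earlier results of these data known. Named genes are all mitochondrial members, up to 3 per complex and direction by smallest p among called genes with separate groups, the nuclear gene with the most reads in each complex, paralogs, and up to 2 per list and direction; other genes were named after their values were seen. Alternatives were DESeq2 1.42.0, total-count and ribosomal protein scaling, scaling on nuclear genes, other count filters, each library left out and a replicate block.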

Additional observations from a re-analysis of the deposited data

How the results depend on the processing

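Against 75 nuclear members lower and 0 higher, and 4 mitochondrial members higher and 2 lower, the counts in that order were 23, 8, 10 and 0 with total-count scaling, 3, 23, 13 and 0 with ribosomal protein scaling, and 36, 4, 7 and 0 with at least 10 reads required in every library. DESeq2 called 1 mitochondrial member in each direction, and with no count filter 1 was higher and 0 lower. With a replicate block 1 mitochondrial member was lower and 73 nuclear members were lower, and 2 of 40 named calls were lost; same-numbered libraries share only a number (correlation of their deviations 0.0305 over 8133 genes). With library sizes and TMM factors from nuclear genes all 40 named calls remained. Leaving out 1 library gave 24 to 72 nuclear members lower, 0 to 1 higher, 0 to 9 mitochondrial members higher and 0 to 5 lower.

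Relative to the all-gene median, the nuclear median of -2.69 was -2.89 with no count filter, -0.98 with at least 10 reads in every library, where 62 nuclear members and 2043 genes were tested, and between -2.84 and -2.42 when a library was left out. The mitochondrial median of -0.01 was 1.51 with at least 10 reads in every library, 0.29 and 0.30 without mutant replicates 1 and 2, 0.53 without sibling replicate 1 and -0.54 without sibling replicate 2. Over all genes, 2861 were higher and 2104 lower, against 5585 and 1015 with total-count scaling, 6434 and 652 with ribosomal protein scaling, and 595 and 575 with at least 10 reads in every library. DESeq2 called 1706 higher, no count filter gave 1540 higher, and leaving out 1 library gave 340 to 2405 higher and 924 to 2227 lower. Leaving out 1 library put MT-CO1 between -1.25 and 0.30, MT-ND4 between -0.14 and 1.08 and MT-ND5 between -0.016 and 0.78, measured from the all-gene median; the first turned without sibling replicate 1 and the others without sibling replicate 2. With at least 10 reads in every library, MT-CO3, MT-CYB, SDHA, COX7A2 and atp5meb were at 0.094, 1.0, 0.76, 0.16 and 0.10 against that median, and MT-CO1, MT-CO2, MT-ND6, cox8a, cox6a1 and atp5mc1, also below it in the fit reported, were at 1.07, 0.59, 1.51, 1.40, 0.40 and 0.38. SDHB, NDUFV1 and CYC1 were also below that median in the fit reported. With this filter their log2 fold changes were 0.87, 1.405 and 0.28, beside an all-gene median of 0.029. The causes were not tested.

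The mitochondrial to nuclear ratios kept their direction in every alternative run. For the runs without 1 library this was fixed in advance, because both mutant libraries lay above both sibling libraries. Over all complexes the log2 difference was 2.30 from means of log2 CPM, 2.11 with structural subunits only and 2.04 without MT-CO1; complex III has 1 mitochondrial gene, so the last could not be run for it. The 21 members that failed the count filter were not tested in the fit reported.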
